A study of Mus musculus with 4 samples.

Results

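The genes described here are 10 components of the NF-kB pathway, named by their place in the pathway, among the 27179 genes of the expression table. They are the 5 subunits Nfkb1, Nfkb2, Rel, Rela and Relb, the inhibitors and feedback genes Nfkbia, Nfkbie and Tnfaip3, and the upstream signalling genes Traf6 and Ikbkb. All 10 were found in the table and all 10 passed the filter on low values. Leukemia-initiating cells (LICs) of the murine MLL-AF9 model of acute myeloid leukemia (AML) were compared between WT and CD274-null leukemia by RNA-sequencing, with 2 libraries per genotype. CD274 (PD-L1) is a ligand of the checkpoint receptor PD-1, and the CD274-null libraries come from knockout mice. The LICs, called LSCs in the sample labels and defined in the study as Mac-1+/c-Kit+ cells, came from bone marrow of C57BL/6 mice with a labelled age of 6 weeks. The study describes a sort of LICs for quantitative RT-PCR, while its sequencing methods name total RNA from tissue. Both genotypes carried the MLL-AF9 fusion oncogene, delivered by a YFP-marked retrovirus to fetal liver cells that were then transplanted into irradiated C57BL/6 recipients, so cells of the host can remain in the marrow. Nothing in the labels says whether the 2 libraries of a genotype came from separate mice. The p-values therefore measure only the spread between these libraries, which may not be the spread between mice.

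NF-kB is a family of dimeric transcription factors that are held in the cytoplasm by IkB proteins. Signals from Toll-like and interleukin-1 receptors pass through adaptors such as Traf6 to the IkB kinase. The kinase marks the inhibitors for degradation and lets the dimers enter the nucleus. The dimers then switch on inflammatory genes together with Nfkbia, Nfkbie and Tnfaip3, whose products shut the signal off again. In myeloid cells and in many myeloid leukemias the pathway is known for control of survival and inflammatory output.

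Because several members are themselves classical NF-kB targets, the bases before their start sites were searched for the kappaB consensus motif on both strands. RefSeq start sites on GRCm38.p6 gave windows of 250 bases upstream for 7 of the 10 members, and none for Nfkb1, Relb and Ikbkb. A match was found in 5 of these 7 genes and in 7 of their 10 windows, or 70% of windows, against 1281 of 32851 windows (3.90%) of all genes. Counted by gene, 4.46% of all genes with a window held a match. Nfkb2 alone gave 3 of the members' windows with a match, and 2 of these share bases. In the lists of other pathway genes described below, 29.4% of target, 17.6% of inhibitor, 13.3% of kinase and 8.33% of adaptor windows held a match. The windows below are those of the members with a match, shown for the spacing of the motif, and that of Traf6, shown as the member without a match whose level differed most clearly between the libraries. They run 5′ to 3′ on the coding strand and end at the base before the start, with matches on either strand in capitals.
Nfkbia: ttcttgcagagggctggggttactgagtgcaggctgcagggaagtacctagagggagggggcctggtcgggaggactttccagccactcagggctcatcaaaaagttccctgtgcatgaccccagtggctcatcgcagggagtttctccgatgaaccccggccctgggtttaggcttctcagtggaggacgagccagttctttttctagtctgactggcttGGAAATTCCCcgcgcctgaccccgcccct
Tnfaip3: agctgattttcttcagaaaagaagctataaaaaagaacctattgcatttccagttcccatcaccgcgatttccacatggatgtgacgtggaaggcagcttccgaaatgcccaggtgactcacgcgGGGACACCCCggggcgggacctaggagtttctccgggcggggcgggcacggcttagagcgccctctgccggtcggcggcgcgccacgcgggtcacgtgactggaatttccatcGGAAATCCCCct
Nfkb2: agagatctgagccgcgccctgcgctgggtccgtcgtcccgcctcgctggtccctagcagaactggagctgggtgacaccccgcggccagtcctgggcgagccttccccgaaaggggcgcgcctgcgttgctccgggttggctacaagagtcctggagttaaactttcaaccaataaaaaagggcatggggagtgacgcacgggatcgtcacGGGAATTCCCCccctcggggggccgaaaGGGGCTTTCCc
Rel: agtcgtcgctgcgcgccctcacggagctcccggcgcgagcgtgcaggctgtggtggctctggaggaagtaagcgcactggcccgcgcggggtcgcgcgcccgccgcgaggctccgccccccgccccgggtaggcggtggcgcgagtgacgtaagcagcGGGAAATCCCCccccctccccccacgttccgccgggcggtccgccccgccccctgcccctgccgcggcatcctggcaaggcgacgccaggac
Nfkbie: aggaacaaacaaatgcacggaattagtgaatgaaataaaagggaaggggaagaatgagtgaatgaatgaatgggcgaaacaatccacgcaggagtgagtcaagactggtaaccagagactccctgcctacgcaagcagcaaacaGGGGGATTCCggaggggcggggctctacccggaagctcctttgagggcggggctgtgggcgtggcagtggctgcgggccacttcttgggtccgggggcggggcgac
Traf6: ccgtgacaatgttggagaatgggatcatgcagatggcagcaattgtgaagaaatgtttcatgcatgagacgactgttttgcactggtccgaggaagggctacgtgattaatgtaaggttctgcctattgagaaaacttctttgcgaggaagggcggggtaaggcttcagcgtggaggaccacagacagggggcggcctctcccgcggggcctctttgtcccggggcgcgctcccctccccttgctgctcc
The Nfkbia window, chr12:55492648-55492897 on the minus strand, held a single match that began 29 bases before the start. The window of Tnfaip3, chr10:19015411-19015660 on the minus strand, held 2 matches, 125 and 12 bases before the start, and a second window of this gene held none. In Nfkb2, chr19:46304487-46304736 on the plus strand, 2 overlapping matches began 39 and 38 bases before the start and another began 11 bases before it. The other 2 windows of Nfkb2 held a match each, 236 and 225 bases before their starts. Rel, chr11:23770970-23771219 on the minus strand, held 2 overlapping matches 92 and 91 bases before the start. Nfkbie, chr17:45555450-45555699 on the plus strand, held a match 106 bases before the start. No match was present in the window of Traf6, chr2:101678170-101678419 on the plus strand, or in that of Rela. A match is a description of the letters in the window and not evidence of binding in these cells.

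**Figure D1:**
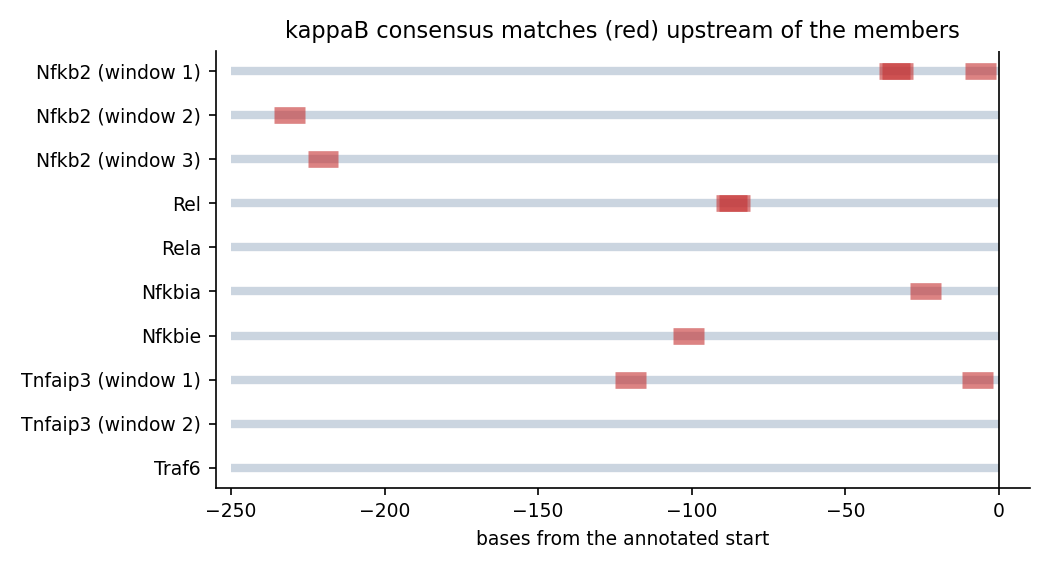
Distance of kappaB consensus matches from the start site, in bases, for the windows of 250 bases upstream of the members with a RefSeq window. Each line is 1 window, and 7 of the 10 windows hold at least 1 match.

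The libraries rested on 10968851 and 9615840 recovered reads in WT against 8285063 and 9345641 in CD274-null. Cd274, on chromosome 19, had an FPKM of 2.80 and 0.945 in WT against 1.43 and 2.29 in CD274-null, so it did not separate the libraries and every direction below rests on the labels. The LIC markers Itgam, Kit, Hoxa9 and Meis1 were present in all 4 libraries, with a summed FPKM of 232 to 303, but Kit was 6.59 in WT replicate 1 and 16.2 to 19.5 in the other libraries. Markers of other cell types moved between libraries, and the single markers named here and below were picked from their lists after their values were seen. The summed FPKM of 7 neutrophil genes was 42034 and 8391 in WT against 17562 and 30523 in CD274-null. The sum of 7 plasma cell genes was 187 and 75.8 in WT against 361 and 307 in CD274-null. Most of the WT sum was Xbp1, which overlapped, whereas Igkc was 8.64 and 7.98 in WT against 214 and 189 in CD274-null, and Jchain 0.370 and 0.514 against 12.3 and 10.5. The sum of 8 T and NK cell genes was 33.2 and 13.7 in WT against 70.4 and 87.3 in CD274-null, nearly all of it Nkg7 (32.4 and 11.7 against 67.2 and 85.7). The sum of 10 B cell genes was 12.97 and 37.1 in WT against 37.6 and 39.9 in CD274-null, nearly all of it Cd79b, which overlapped between the genotypes. Of the 10 genes, 6 were higher in CD274-null without overlap and 0 lower, all 6 below the filter on low values. Among them Pax5 was 0 in both WT libraries and 0.0936 and 0.416 in CD274-null. Of these lists, 7 of 7 neutrophil, 4 of 7 plasma cell, 1 of 8 T and NK cell and 1 of 10 B cell genes passed the filter on low values. The sum of 6 erythroid genes was 54.9 in WT replicate 2 and at most 4.56 elsewhere. Xist was 2.57 and 51.1 in WT against 107 and 68.7 in CD274-null. In the same order, 4 Y-linked genes summed to 86.0, 66.2, 0.0460 and 29.4. The libraries thus also differed in sex-linked transcripts, within a genotype too. In bulk RNA, fewer cells of a type and less RNA per cell cannot be told apart. The part of these markers in the results on NF-kB genes was not tested.

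The members differed widely in level. Their order by mean FPKM over the 4 libraries was Nfkbia (147), Nfkb1 (61.8), Rela (46.5), Ikbkb (36.1), Tnfaip3 (14.3), Traf6 (14.1), Nfkb2 (12.2), Rel (7.27), Nfkbie (6.04) and Relb (2.19). Nfkbia stood at the 96.3 percentile of the 13230 tested genes and Relb at the 17.4 percentile. FPKM is scaled by gene length, though the lengths used are not given in the sources used here, so the order between genes is approximate. The ranges of Nfkbia and Nfkb1 did not overlap across the libraries, nor did those of Nfkb1 and Rela or of Nfkb2 and Rel. All other neighbours in this order had overlapping ranges, although Rela lay above Ikbkb within each of the 4 libraries. Tnfaip3 and Traf6 exchanged places between libraries, Traf6 being the higher in both WT libraries and Tnfaip3 in both CD274-null libraries.

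**Figure D2:**
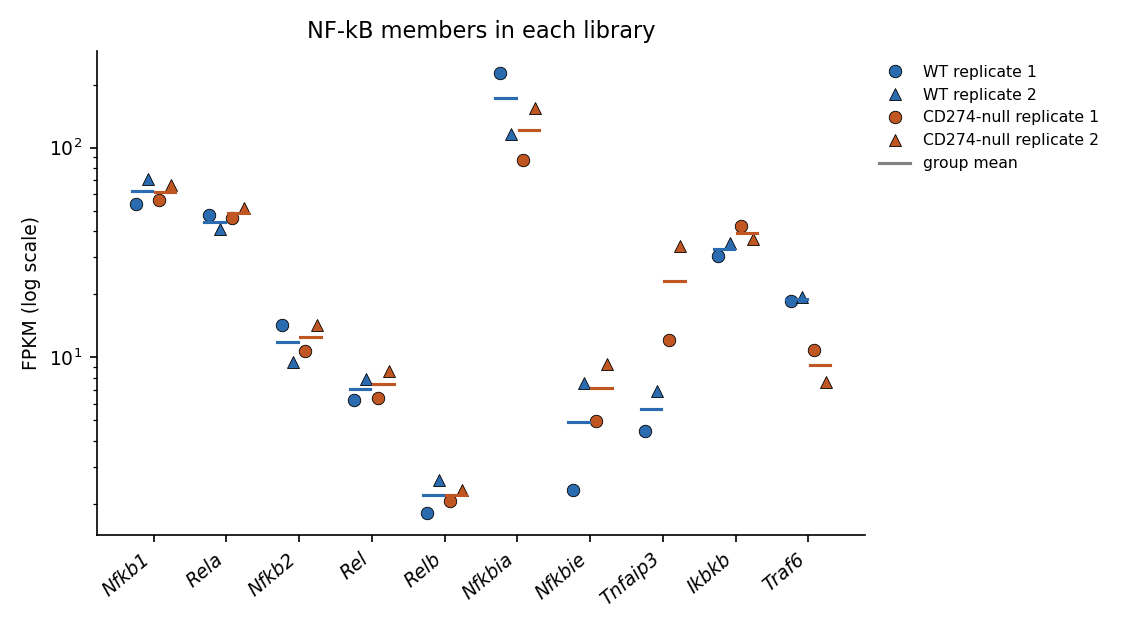
FPKM of the 10 members in each of the 4 libraries, on a log axis, with WT and CD274-null libraries marked separately. Traf6, Tnfaip3 and Ikbkb lie in separate ranges in the 2 genotypes, with Traf6 lower and Tnfaip3 and Ikbkb higher in CD274-null.

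Of the members, 7 had a positive and 3 a negative log2 fold change of CD274-null against WT, on the log2(FPKM + 0.5) scale, which understates the change of low genes. Their median was 0.08, against 0.01 over all tested genes. A single member, Traf6, was a candidate, meaning a fold change above 1.5 together with an unadjusted p below 0.01. Candidates made up 3.63% of the tested genes, and candidates with a lower level in CD274-null 1.24%. An unadjusted p under 0.05 was reached by Traf6 and Tnfaip3, 2 of 10, where 13.7% of all tested genes reached it. No member passed an adjusted p of 0.05 in limma with Benjamini-Hochberg adjustment, nor under any alternative, and 0.0756% of the tested genes did. In 3 of the 10 members the 2 genotypes did not overlap, a share below the 47.3% of all tested genes.

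**Figure D3:**
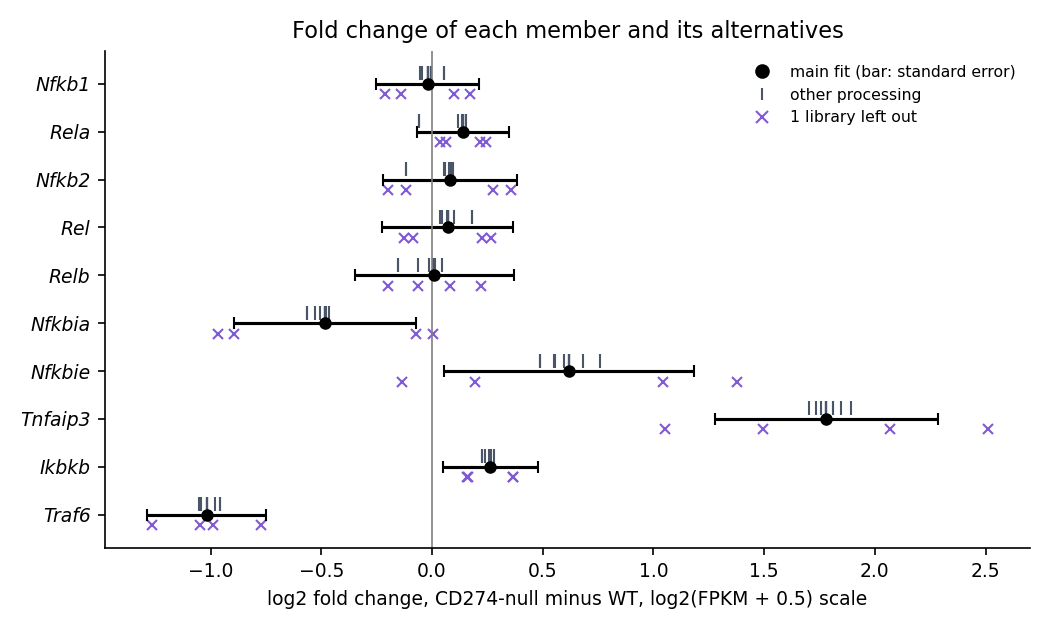
Log2 fold change of CD274-null against WT for the 10 members, with bars of the standard error from limma. Further marks show the other processing settings and the fits with a library left out. The intervals of Traf6 (-1.67 to -0.37) and Tnfaip3 (0.56 to 3.003) exclude 0, and those of the other 8 members include it.

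The levels of all 5 subunits overlapped between the genotypes. Nfkb1 (NCBI gene 18033, chr3:135584655-135691969 of GRCm38) encodes the precursor of the DNA-binding subunit of the classical heterodimer, and had an FPKM of 54.1 and 70.7 in WT against 56.1 and 66.3 in CD274-null. Its partner Rela (NCBI gene 19697, chr19:5637442-5648134 of GRCm38), which carries a transactivation domain, had 47.5 and 41.0 in WT against 46.2 and 51.3 in CD274-null. Both genes therefore had overlapping libraries, with a log2 fold change of -0.02 (95% interval -0.58 to 0.54) for Nfkb1 and 0.14 (-0.37 to 0.64) for Rela. Rel (NCBI gene 19696, chr11:23736847-23770969 of GRCm38), a subunit of the classical pathway known from lymphoid and myeloid cells, was lower, with 6.26 and 7.87 in WT against 6.39 and 8.55 in CD274-null. Nfkb2 (NCBI gene 18034, chr19:46300994-46312400 of GRCm38), the precursor subunit of the alternative pathway, had 14.2 and 9.52 in WT against 10.7 and 14.2 in CD274-null. Its span overlaps an annotated long noncoding RNA listed at up to 14.4 FPKM, and the strand setting of the counting is not given in the sources used here, so reads of the 2 genes may not be separated. Relb (NCBI gene 19698, chr7:19606217-19629438 of GRCm38), the partner of Nfkb2, was the least abundant subunit, with 1.804 and 2.58 in WT against 2.05 and 2.32 in CD274-null from 40 to 58 recovered reads per library. The log2 fold changes were 0.07 (-0.65 to 0.79) for Rel, 0.08 (-0.65 to 0.81) for Nfkb2 and 0.01 (-0.86 to 0.88) for Relb. Each adjusted p from limma was at least 0.802, and with 2 libraries per genotype the intervals hold differences in either direction. After correction of the libraries for GC content the log2 fold change of Nfkb1 turned positive (0.06) and those of Nfkb2 (-0.12), Rela (-0.06) and Relb (-0.15) turned negative. With a library left out, the fold changes of Nfkb1, Nfkb2, Rel and Relb took both signs, while that of Rela stayed positive.

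The makeup of the subunit pool overlapped between the genotypes as well. The 5 subunits summed to 124 and 132 FPKM in WT (128 ± 5.57, SD, n = 2) and to 121 and 143 in CD274-null (132 ± 15.1, SD, n = 2). Nfkb1 made up 43.7% and 53.7% of this sum in WT against 46.2% and 46.5% in CD274-null. Rela made up 38.4% and 31.2% in WT against 38.0% and 36.0% in CD274-null. These 2 genes of the classical heterodimer thus held most of the subunit transcripts in every library. Nfkb2 and Relb, the genes of the alternative pathway, held at most 11.5% and 1.96%. The ratio of Nfkb1 to Rela was 1.14 and 1.72 in WT against 1.22 and 1.29 in CD274-null, and the genotypes overlapped.

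The inhibitors varied more between libraries of a genotype than the subunits did, with up to 3.25-fold between 2 libraries of a genotype against at most 1.495-fold. Nfkbia (NCBI gene 18035, chr12:55489409-55492647 of GRCm38) encodes IkB-alpha, the inhibitor that is rapidly resynthesized after each round of activation. Its FPKM was 228 and 116 in WT against 87.4 and 155 in CD274-null, with WT replicate 1 the highest and the genotypes overlapping. The means were 172 ± 79.1 (SD, n = 2) in WT and 121 ± 47.8 (SD, n = 2) in CD274-null. On the log2 scale the difference was -0.48 (SE 0.41, adjusted p = 0.629 from limma), and without WT replicate 1 it was 0.0037. Nfkbie (NCBI gene 18037, chr17:45555700-45563169 of GRCm38) encodes IkB-epsilon, an inhibitor with a slower feedback role. It had 2.32 and 7.54 in WT against 4.95 and 9.33 in CD274-null, and WT replicate 1 was this time the lowest library. On the log2 scale the difference was 0.62 (SE 0.56, adjusted p = 0.650 from limma), and without WT replicate 1 it was -0.14. The ratio of Nfkbia to Nfkbie was 98.3 in WT replicate 1 and 15.4 to 17.7 in the other 3 libraries. The same library had the highest summed neutrophil markers and the lowest Kit among the 4, and whether these bear on its inhibitor levels was not tested.

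Tnfaip3 had the largest fold change of the members. The gene (NCBI gene 21929, chr10:19000910-19015410 of GRCm38) encodes A20, a ubiquitin-editing enzyme that acts on Traf6 and other signalling proteins and ends NF-kB activation. Its FPKM was 4.46 and 6.88 in WT against 12.03 and 34.0 in CD274-null, from 237, 322, 489 and 1554 recovered reads. Both CD274-null libraries lay above both WT libraries, but they differed 2.82-fold from each other. The ratio of the means was 4.06, with 5.67 ± 1.71 (SD, n = 2) in WT and 23.0 ± 15.5 (SD, n = 2) in CD274-null. On the log2 scale the difference was 1.78 (SE 0.50, unadjusted p = 0.0116 and adjusted p = 0.284 from limma), which just missed the candidate threshold on p. Without CD274-null replicate 2 it was 1.05 (unadjusted p = 0.0926 from limma), and without CD274-null replicate 1 it was 2.51 (unadjusted p = 0.0073 from limma). The lone library left in the genotype is there assumed to vary like the others. Igkc, Jchain and Nkg7, given above, were also higher in both CD274-null libraries, and their part in this difference was not tested.

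Traf6 and Ikbkb act upstream of the inhibitors. Traf6 (NCBI gene 22034, chr2:101678420-101701668 of GRCm38) encodes the ubiquitin ligase that relays interleukin-1 and Toll-like receptor signals to the kinases. Its FPKM was 18.5 and 19.3 in WT against 10.9 and 7.57 in CD274-null, from 1171, 1076, 526 and 413 recovered reads. The genotypes did not overlap, and the WT libraries were nearly equal. The CD274-null mean of 9.22 ± 2.32 (SD, n = 2) was 48.8% of the WT mean of 18.9 ± 0.575 (SD, n = 2). On the log2 scale the difference was -1.02 (SE 0.27, unadjusted p = 0.00847 and adjusted p = 0.274 from limma). The direction held under all 16 alternatives, but the unadjusted p rose above 0.01 in 8 of them, among them the omission of each library in turn, where the fold change ran from -1.26 to -0.77. The adjusted p from limma ranged from 0.252 to 0.954 over the alternatives. The Y-linked sum given above was lower in both CD274-null libraries too, as was that of 9 macrophage and dendritic cell genes (150 and 155 in WT against 103 and 113), which overlapped without Vcam1, while Igkc, Jchain and Nkg7 were higher. Their part in the Traf6 difference was not tested. Ikbkb (NCBI gene 16150, chr8:22659205-22706589 of GRCm38) encodes IKK-beta, the catalytic subunit that phosphorylates the IkB proteins in the classical pathway. It had 30.4 and 35.1 in WT against 42.2 and 36.5 in CD274-null, a log2 fold change of 0.26 (-0.26 to 0.78, adjusted p = 0.608 from limma). Both CD274-null libraries were the higher, and the interval included 0.

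Ratios within a library set feedback genes against their pathway. Tnfaip3 over Traf6 was 0.241 and 0.357 in WT against 1.11 and 4.48 in CD274-null. Tnfaip3 over Nfkbia, both products of the same feedback, was 0.0196 and 0.0593 in WT against 0.138 and 0.219 in CD274-null. Nfkbia over Rela was 4.80 and 2.83 in WT against 1.89 and 3.02 in CD274-null. The first 2 ratios did not overlap between genotypes and the last did. They restate the values of the single genes, and no test was made of them.

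Genes with a profile like that of Traf6 were sought over the 4 libraries. Among 9277 other genes whose mean FPKM reached 5, the nearest profiles by Euclidean distance of centred log2(FPKM + 0.5) were those of Cog5 (0.09), Cpeb4 (0.09), Fcgr4 (0.11), Fam172a (0.11) and Opa1 (0.11). Cog5 had 14.9 and 14.9 in WT against 8.26 and 6.23 in CD274-null. With 4 libraries such likeness is a description only. Within the members, the closest pairs were Nfkb1 with Relb (0.08) and Rel with Nfkb1 (0.15).

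Other genes of the pathway were examined in 4 lists written from general knowledge, holding 90 genes, of which 80 passed the filter on low values. Of these, 39 had a higher and 41 a lower level in CD274-null, with a median log2 fold change of -0.01. Candidates numbered 2, or 2.50%, and the genotypes did not overlap in 36, or 45.0%, both shares close to those of all tested genes. No listed gene passed an adjusted p of 0.05 in limma, under any setting, and 15 of the 80 had an unadjusted p under 0.05, where 13.7% of all tested genes did.

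**Figure D4:**
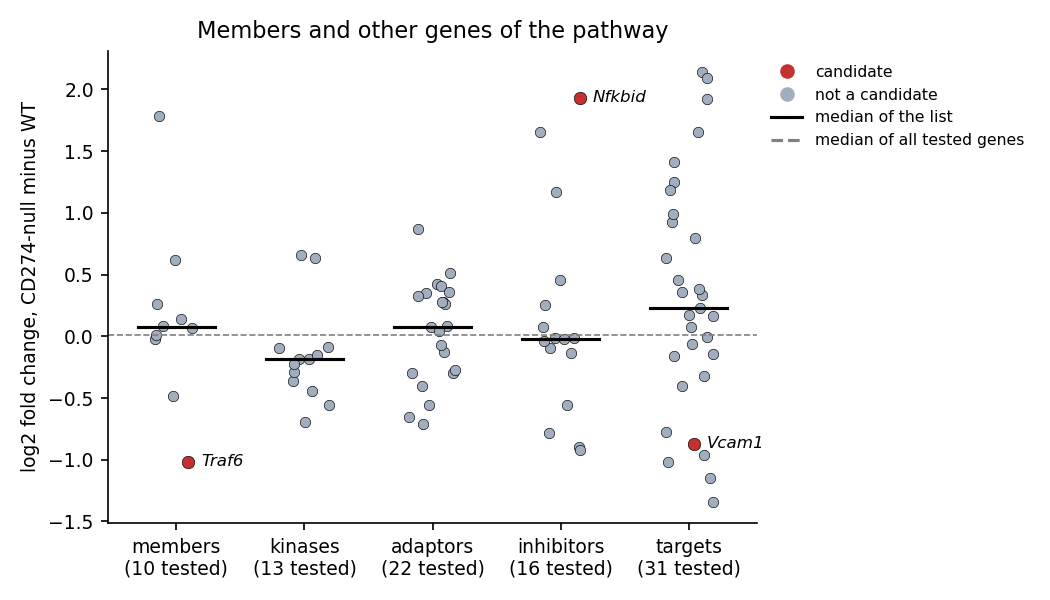
Log2 fold change of CD274-null against WT for the tested genes of each pathway list, 1 point per gene, with candidates marked. The lists have medians of -0.18 for kinases, 0.08 for adaptors, -0.02 for inhibitors and 0.23 for targets.

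Among the 13 kinase genes, 11 had a negative and 2 a positive fold change, with a median of -0.18, and none was a candidate. Ikbkg, which encodes NEMO, the regulatory subunit of the IkB kinase, had 13.4 and 14.8 in WT against 9.97 and 7.29 in CD274-null. Its log2 fold change was -0.69 (adjusted p = 0.349 from limma). Map3k3, a kinase upstream of the complex, had 56.2 and 72.0 in WT against 47.5 and 39.1 in CD274-null (-0.56, adjusted p = 0.366 from limma). Chuk, the other catalytic subunit of the IkB kinase complex and named after its values were seen, had 28.9 and 22.8 in WT against 24.7 and 20.6 in CD274-null (-0.18, adjusted p = 0.765 from limma). Of the 3 genes of this complex, Ikbkg was thus lower and Ikbkb higher in both CD274-null libraries and Chuk overlapped, none past the threshold. Of the 22 tested adaptor genes, 13 were higher and 9 lower, with a median of 0.08 and no candidate. Myd88, the adaptor that precedes Traf6 in Toll-like receptor signalling, had 89.1 and 56.7 in WT against 49.3 and 37.9 in CD274-null (-0.71, adjusted p = 0.356 from limma). Traf5, another member of the Traf family, had 1.44 and 2.99 in WT against 3.93 and 4.59 in CD274-null (0.87, adjusted p = 0.404 from limma). With 1 library left out, these fold changes ran from -1.03 to -0.39 for Myd88, the smallest without WT replicate 1, and from 0.44 to 1.29 for Traf5, the smallest without WT replicate 1.

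Of the 16 other inhibitor and feedback genes, 6 were higher and 10 lower, and 1 was a candidate. This was Nfkbid, which encodes a nuclear IkB protein, with an FPKM of 15.2 and 8.16 in WT against 34.3 and 56.4 in CD274-null. On the log2 scale the difference was 1.93 (SE 0.38, unadjusted p = 0.00195 and adjusted p = 0.251 from limma). Both CD274-null libraries were the higher, and CD274-null replicate 2 the highest, as for Tnfaip3. Without CD274-null replicate 2 the value was 1.58 (unadjusted p = 0.044 from limma) and without CD274-null replicate 1 it was 2.29 (unadjusted p = 0.0149 from limma), both outside the candidate threshold. The other nuclear IkB genes were named after their values were seen. Nfkbiz had 17.7 and 5.37 in WT against 19.7 and 52.1 in CD274-null (1.65, adjusted p = 0.349 from limma). Bcl3 had 48.3 and 8.46 in WT against 10.4 and 11.1 in CD274-null (-0.89, adjusted p = 0.608 from limma), with WT replicate 1 far above the rest.

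Of the 31 tested target genes, 19 were higher and 12 lower, with a median of 0.23. The candidate among them was Vcam1, an adhesion molecule, with 117 and 92.3 in WT against 53.7 and 59.8 in CD274-null (log2 fold change -0.87, standard error 0.22, unadjusted p = 0.00704 and adjusted p = 0.272 from limma). Vcam1 is also expressed by marrow macrophages. The other 8 macrophage and dendritic cell markers had a summed FPKM of 32.5 and 63.0 in WT against 49.8 and 53.5 in CD274-null, which overlapped. Of these, 2 (Itgax and Siglech) were higher without overlap, as 47.3% of all tested genes lacked overlap in either direction. Siglech did not pass the filter on low values, with 0 recovered reads in each WT library and 1 in each CD274-null library. Vcam1 lost the candidate threshold in 7 of 16 alternatives. These included the omission of WT replicate 1 (-0.70) or of CD274-null replicate 1 (-0.79) or 2 (-0.95), GC correction (-0.75), eBayes without trend and no moderation. Other targets, named after their values were seen, stood highest in CD274-null replicate 2. Tnf had 128 and 98.3 in WT against 93.2 and 214 in CD274-null, Ccl3 had 33.9 and 72.7 against 62.1 and 226, and Irf1 had 14.7 and 12.9 against 21.98 and 46.5. In each of the 3, CD274-null replicate 2 was more than 2-fold above CD274-null replicate 1. Of the 31 targets, 17 (54.8%) had their highest value in this library, as did 4 of the 10 members (Rel, Rela, Nfkbie and Tnfaip3), against 21.0% of all tested genes.

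**Figure D5:**
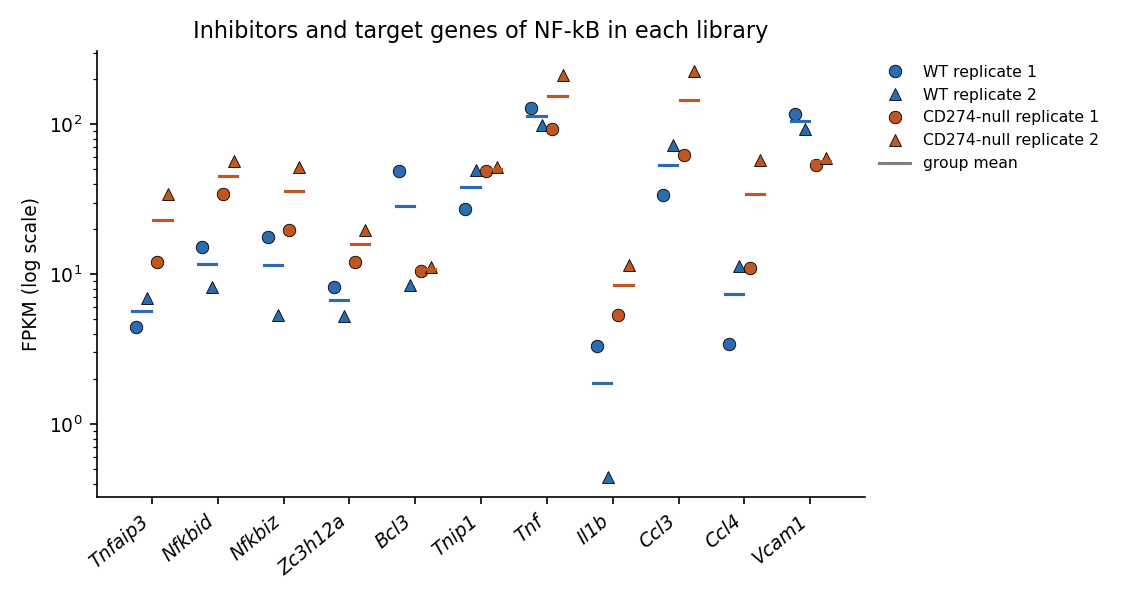
FPKM in each library for inhibitor and target genes of the pathway, on a log axis. Nfkbid lies higher and Vcam1 lower in both CD274-null libraries, and CD274-null replicate 2 holds the highest values of Tnfaip3, Nfkbid, Tnf and Ccl3.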

How the data were processed

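RNA of the 4 LIC libraries was prepared with the TruSeq v2 protocol and sequenced on a HiSeq2500. Alignment to GRCm38 was by TopHat2 2.0.12, and for each gene the authors deposited 1 FPKM value in each library (fragments scaled by gene length and mapped reads). The program, gene lengths and strand setting behind FPKM are not given in the sources used here. FPKM corrects for depth and length but not for GC content. Groups came from the labels, and 0 columns were left unassigned. Gene names came from RefSeq, which paired 25275 of the 27179 gene numbers with a symbol.

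Within a gene, FPKM values stand in whole-number ratios, so reads were recovered for 17082 of 17083 genes above 0 in at least 2 libraries. They are lower bounds where the reads of a gene share a factor. The 13230 genes whose mean FPKM reached 0.5 were compared on log2(FPKM + 0.5) with limma 3.58.1 in R 4.3.3 (eBayes with trend, Benjamini-Hochberg adjustment over all tested genes). The fit was tested on simulated data with the same setting of spread for every gene. That test does not show how the fit performs on these libraries. Candidates had p under 0.01 and a fold above 1.5, the thresholds of the study. They numbered 480, with 316 higher and 164 lower in CD274-null. Quantile normalization gave 253 higher and 210 lower, equal medians 247 and 200, and GC correction 170 and 148.

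The members and lists were chosen with earlier results of these data known. Named genes were the members, Cd274, the candidates of each list or its 2 genes of smallest p, and the 5 profiles nearest to the member of smallest p. Others are marked as named after their values were seen. Alternatives were other pseudocounts (1 and 0.1), filters and scalings, other eBayes settings, the replicate number as a block, a GC correction (loess, span 0.3), voom on the recovered reads, and leaving out each library.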

Additional observations from a re-analysis of the deposited data

How the results depend on the processing

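With 2 libraries per genotype, precision rests on spread borrowed from other genes, and leaving out a library assumes that the lone one varies like the rest. Each fold change below is a log2 value. Candidates over all tested genes numbered 480, but 170 without moderation, 318 with GC correction, 292 with GC correction and replicate block (151 higher and 141 lower), and 147 to 634 with 1 library left out, the lowest 147 without CD274-null replicate 2 and 235 without CD274-null replicate 1. Candidates among the members numbered 1, but 0 without a filter, 0 with eBayes without trend, 0 without moderation, 2 with GC correction and replicate block, and 0 to 1 with 1 library left out. Among the other pathway genes they numbered 2, but 4 without a filter, 0 without moderation, 5 with the replicate block, 1 with GC correction, and 0 to 6 with 1 library left out. The label numbers did not pair the libraries, since the deviations of same-numbered libraries correlated at -0.0151, and the paired fit raised the candidates over all genes from 480 to 526. Under the replicate block Traf6 stayed at -1.02 and was no candidate, while Tnfaip3 at 1.78 was, with the smallest p of all its alternatives. With GC correction and replicate block Tnfaip3 was 1.81, also a candidate.

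Traf6 also lost the threshold at -1.02 without a filter, with eBayes without trend and without moderation. Ikbkb kept its direction in 16 of 16 alternatives. With GC correction, with or without the replicate block, the direction turned for Nfkb1 (0.0562), Nfkb2 (-0.12), Rela (-0.0599) and Relb (-0.15), and Relb turned also with quantile normalization (-0.0642) and equal medians (-0.0136). With 1 library left out, the ranges were -0.21 to 0.17 for Nfkb1, -0.20 to 0.36 for Nfkb2, -0.13 to 0.27 for Rel, 0.0348 to 0.24 for Rela, -0.20 to 0.22 for Relb, -0.97 to 0.0037 for Nfkbia, -0.14 to 1.38 for Nfkbie, 1.05 to 2.51 for Tnfaip3, -1.26 to -0.77 for Traf6 and 0.16 to 0.37 for Ikbkb. The other pathway genes named by rule kept their direction in every alternative run, although Nfkbid left the candidate threshold in 3 and Vcam1 in 7 of 16. The causes of these changes were not tested.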

Other observations

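Further pathway genes, chosen after their values were seen, fell into different patterns over the libraries. Zc3h12a, which encodes an RNase that degrades inflammatory transcripts, had an FPKM of 8.20 and 5.25 in WT against 11.97 and 19.7 in CD274-null. Its log2 fold change was 1.17 (adjusted p = 0.296 from limma). Tnip1, which encodes a binding partner of A20, had 27.0 in WT replicate 1 and 48.9 to 51.9 in the other 3 libraries. Il1b, which encodes the cytokine interleukin-1 beta, had 3.32 and 0.444 in WT against 5.36 and 11.4 in CD274-null (2.14, adjusted p = 0.313 from limma). Among kinases, Map3k14, which activates the alternative pathway, had 4.91 and 6.40 in WT against 7.45 and 10.8 in CD274-null (0.63, adjusted p = 0.424 from limma).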
